A study of Mus musculus with 24 samples.

Results

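How far the methylation levels of separate libraries of 1 tissue differed from each other was measured in mouse liver, brain and heart, and the 3 tissues were compared. The members are the 758685 tiles of 100 bp that are present in the tables of all 3 tissues, of 1005908 tiles present in any table, and the 24 libraries that measure them. DNA methylation had been profiled by enhanced RRBS, a bisulphite method that reads the CpG-rich part of the genome. All mice were C57Bl/6J animals aged 24 weeks with no treatment or transgene. Liver (12 libraries, from 6 males and 6 females), brain (6 libraries, 3 males and 3 females) and heart (6 libraries, 3 males and 3 females) were taken as pieces of whole tissue: a part of the left lobe of the liver, a section of the rostral brain and the apex of the heart. Brain and heart came from mice that also gave a liver library, so the tissues share animals. The level columns do not carry a mouse number, so each is called a library of its tissue, and no library was given a gender. Libraries are numbered within a tissue, and the same number in 2 tissues does not stand for the same mouse.

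Methylation of a cytosine in a CpG is set by DNA methyltransferases and copied at cell division, so that in most cells a given CpG is either methylated or not. The level of a tile in bulk tissue is an average over many cells and over the CpGs of the tile. Levels near 0 are typical of CpG islands at promoters, levels near 100% of most of the remaining genome, and intermediate levels of enhancers, of imprinted loci, where 1 parental allele is methylated, and of sites that differ between cell types. In isogenic mice, certain retrotransposons, among them IAP elements, are known for levels that differ from animal to animal. In such data a change in the share of cells of a type cannot be told apart from a change of the level within cells of that type. The tables give no read counts, so the depth behind each level is unknown, and counting error cannot be told apart from differences between mice. Depth in every library was above 10 reads per tile, as the study states it.

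The markers of hepatocytes had a mean level of 45.8% in liver, 77.6% in brain and 68.0% in heart. Those of cardiomyocytes stood at 51.6% in heart, 62.6% in brain and 63.6% in liver, and those of oligodendrocytes, the myelin-forming cells, at 48.8% in brain, 52.4% in heart and 58.2% in liver. Each of these lists was lowest in the tissue that holds its cells. The neuron markers did not show this order, with 52.9% in brain, 50.1% in heart and 56.1% in liver. Nor did the astrocyte (49.7% in brain, 46.8% in heart), microglia (73.2% and 68.6%) or cholangiocyte markers (48.8% in liver, 45.0% in heart). Heart was also lowest over all common tiles, at 59.8% against 65.2% in brain and 65.3% in liver. The same held for the endothelial markers (55.3%, 67.6% and 67.3%), so a low level in heart was not particular to the cardiomyocyte list.

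The tiles on which the results turn most are printed here, from the top strand of mm10, with each CpG in capitals. The first 3 are repeat-masked tiles with some of the largest spreads, the next 3 lie in runs of adjacent tiles that varied together in brain, and the last 3 had a spread in 1 tissue and nearly none in another.
Gm17821 neighbour, chr12:67651901-67652000: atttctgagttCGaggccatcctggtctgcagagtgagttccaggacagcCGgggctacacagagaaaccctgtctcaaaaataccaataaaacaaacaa
Nkain3 intron 3, chr4:20421101-20421200: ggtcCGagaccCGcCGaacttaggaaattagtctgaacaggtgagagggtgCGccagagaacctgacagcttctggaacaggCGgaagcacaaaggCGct
Gm2429 neighbour, chr3:12619801-12619900: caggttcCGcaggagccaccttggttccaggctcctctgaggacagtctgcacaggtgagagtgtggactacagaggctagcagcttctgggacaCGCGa
Slc4a10 intron 1, chr2:62089001-62089100: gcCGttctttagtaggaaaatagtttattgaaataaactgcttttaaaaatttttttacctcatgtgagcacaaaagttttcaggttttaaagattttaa
Irx5 neighbour, chr8:92365301-92365400: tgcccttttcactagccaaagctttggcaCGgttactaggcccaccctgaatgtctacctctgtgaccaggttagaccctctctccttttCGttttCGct
Fam53b coding exon 3, chr7:132759801-132759900: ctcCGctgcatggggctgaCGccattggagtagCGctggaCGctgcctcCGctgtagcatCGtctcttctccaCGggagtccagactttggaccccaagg
Sptbn4 coding exon 14, chr7:27408801-27408900: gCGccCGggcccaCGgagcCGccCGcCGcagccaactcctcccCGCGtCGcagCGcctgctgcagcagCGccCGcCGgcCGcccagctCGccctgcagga
Ccdc177 coding exon 2, chr12:80759101-80759200: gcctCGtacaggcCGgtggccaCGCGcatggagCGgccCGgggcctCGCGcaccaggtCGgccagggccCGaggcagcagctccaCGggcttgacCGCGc
Ttll9 coding exon 6, chr2:152991501-152991600: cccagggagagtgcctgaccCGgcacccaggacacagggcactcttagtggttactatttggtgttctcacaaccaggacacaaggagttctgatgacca

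Brain library 1 stood apart from the other brain libraries before any comparison between tissues. Its levels lay towards those of heart: over all common tiles, the slope of its deviation on the difference between heart and the other brain libraries was 28.2% (r = 0.460 across tiles, a description), while the other 5 brain libraries ran from -2.51% to 1.67%. At the 41716 tiles that were at least 30 percentage points lower in heart than in the other brain libraries, library 1 had a mean level of 61.6%, the other brain libraries 73.2% and heart 34.0%. At the 9041 tiles at least 30 points higher in heart, library 1 had 49.3% and the other brain libraries 40.1%. Library 1 was thus on the heart side of its tissue in both sets. Brain library 6 was also higher than the rest of its tissue in its own second set, by 5.86 points, but was 2.39 points above, not below, in the first.

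The slope of brain library 1 towards liver was 13.5%, against -0.905% to 3.39% in the other brain libraries. With both tissues in 1 regression it was 27.5% towards heart and 1.27% towards liver. The slopes of heart libraries towards brain or liver ran from 2.0% to 4.92% and those of liver libraries from -2.07% to 5.80%. At the markers of cardiomyocytes library 1 had the lowest level of the brain libraries in 8 of the 11 genes with tiles and was above the mean of the other libraries in 3. Myh6, a cardiac myosin heavy chain, had a level of 73.1% in library 1 and 83.1% to 88.6% in the other brain libraries, Tnnt2, cardiac troponin T, 61.4% against 71% to 74.9%, and Mybpc3, a myosin binding protein of the sarcomere, 77.5% against 82.5% to 86.3%. Endothelial genes were lower too, with library 1 lowest in 7 of 10 genes and higher than the mean of the other libraries in none of them. Kdr, a receptor for vascular endothelial growth factor, stood at 52.7% in library 1 and at 60.4% to 66.4% in the others. Several lists of other cell types and genes were about as low: the mean deviation of library 1 was -3.70 points at the cardiomyocyte markers, -3.79 at the endothelial, -3.98 at the adipocyte and -3.66 at the leukocyte markers and -3.69 at the Olfr genes, which encode odorant receptors. The part of these genes' cell types in the spread of library 1 was not tested, and results that rest on this library are given with and without it.

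The first comparison asked whether the libraries of 1 tissue lie further from each other than those of another. Each library was scored by its mean absolute deviation, the mean over tiles of the distance in percentage points between its level and the mean of the other libraries of its tissue. To keep the number of libraries equal, liver libraries were scored in 100 random sets of 6 and averaged. The brain libraries 1 to 6 had deviations of 5.75, 4.98, 4.45, 4.37, 4.91 and 5.52 points, and the heart libraries 1 to 6 had 4.52, 4.98, 4.39, 4.36, 3.95 and 4.02. The 12 liver libraries ran from 4.09 to 4.76 with a median of 4.38. Brain libraries 1 and 6 exceeded every heart and liver library, and brain library 2 was level with the highest heart library. Brain libraries 3 and 4 lay among the heart and liver libraries, so that the tissues overlapped.

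**Figure D1:**
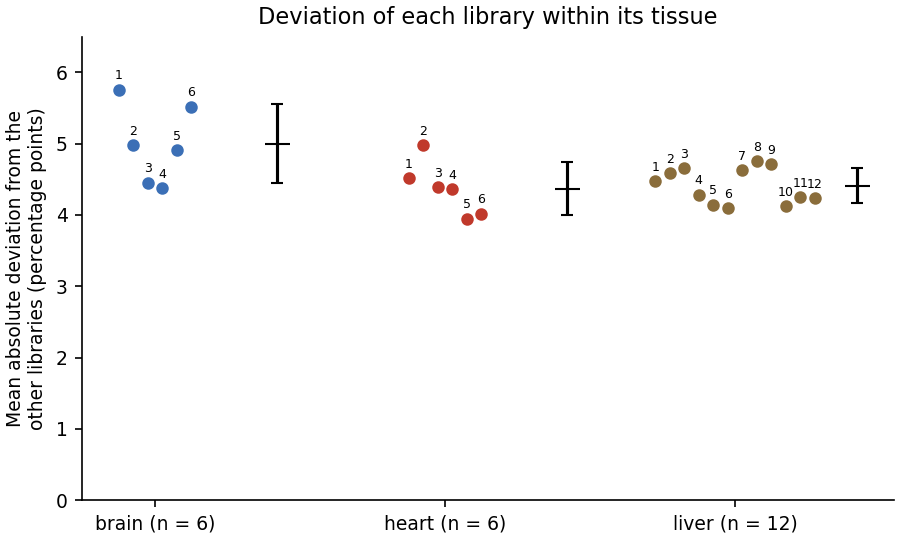
Mean absolute deviation of each library from the other libraries of its tissue, in percentage points over the 758685 common tiles; numbered points are libraries (liver as the mean over random sets of 6) and the bar to the right is the mean ± SD. Brain libraries 1 and 6 lie above every heart and liver library, and brain libraries 3 and 4 lie among them.

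The mean deviation was 5.0 ± 0.555 points in brain (SD, n = 6), 4.37 ± 0.373 in heart (SD, n = 6) and 4.41 ± 0.250 in liver (SD, n = 12). Brain exceeded liver by 0.585 points, which passed an exact two-sided permutation test after adjustment over the 3 pairs (adjusted p = 0.0173). The 0.629 points between brain and heart did not (exact permutation, adjusted p = 0.0844), and heart and liver differed by -0.0445 points (exact permutation, adjusted p = 0.764). Without brain library 1 the brain mean was 4.78 ± 0.385 and the brain to liver difference was 0.366 points, which no longer passed (exact permutation, adjusted p = 0.0970). Leaving out brain library 2 or brain library 6 also ended that call, at 0.578 and 0.456 points (exact permutation, adjusted p = 0.0664 and 0.101). On the arcsine square root scale brain and liver differed by 0.00255, which did not pass, while brain against heart (0.00992) and heart against liver (-0.00737) did (exact permutation, adjusted p = 0.368, 0.0422 and 0.0344). The brain to heart difference in points passed when brain library 3, brain library 4 or heart library 2 was left out, at 0.779, 0.799 and 0.783 points (exact permutation, adjusted p = 0.0227, 0.0162 and 0.0292).

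The share of tiles at which a library was over 20 points from the others showed the same libraries. It was 3.99% in brain library 1 and 3.77% in brain library 6, and 1.04% to 2.67% in the other brain libraries. In heart it ran from 0.471% to 1.86%, with library 2 highest, and in liver from 0.747% to 1.71% when all 12 libraries were used. The mean level over all common tiles ran from 63.7% to 66.4% between brain libraries, from 59.6% to 60.3% in heart and from 64.8% to 66.1% in liver.

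Pearson r between the levels of 2 libraries of 1 tissue, across tiles, ran from 0.942 to 0.976 in the 15 pairs of brain libraries, with a median of 0.958. The 15 heart pairs ran from 0.964 to 0.977 (median 0.971) and the 66 liver pairs from 0.965 to 0.977 (median 0.970). The median of a random set of 6 liver libraries lay between 0.966 and 0.973. The pair of brain libraries 1 and 6 was the least alike, and without library 1 the brain pairs ran from 0.949 to 0.976 (median 0.964). Tiles share a library and are not independent, so these values are descriptions. No pair of libraries in brain, heart or liver had the same level at more than 2.51%, 2.97% and 3.30% of tiles, so that no library was a second copy of another.

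The deviation depended on the level of the tile, and the tissues separated at intermediate levels. Tiles were put in 7 bins by their mean level in the tissue itself. At tiles with a mean level of 40 to 60%, the deviation was 9.05 ± 1.35 points in brain, 6.72 ± 0.586 in heart and 7.82 ± 0.434 in liver (SD, n = 6, 6 and 12). The ratio of brain to heart was 1.32 at 20 to 40%, 1.35 at 40 to 60% and 1.31 at 60 to 80% (exact permutation, adjusted p = 0.0152 in each), and that of brain to liver 1.15, 1.16 and 1.17 (exact permutation, adjusted p = 0.0223, 0.0166 and 0.0131). Heart was lower than liver in the same bins, with ratios of 0.870, 0.858 and 0.898 (exact permutation, adjusted p = 0.00566, 0.00452 and 0.0152). All of these passed without brain library 1 as well.

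**Figure D2:**
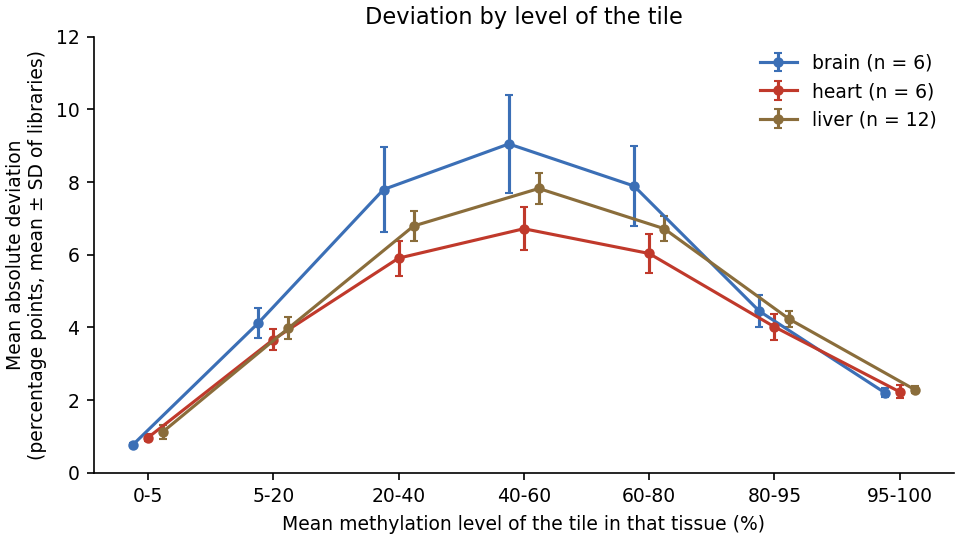
Mean absolute deviation in percentage points by the mean level of the tile in its own tissue (%), as mean ± SD over libraries. Brain lies above liver and liver above heart from 20 to 80%, and brain lies below both at 0 to 5%.

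At the unmethylated tiles, with a mean level of 0 to 5%, brain was the lowest of the 3 tissues. The deviation there was 0.775 ± 0.0406 points in brain, 0.970 ± 0.0967 in heart and 1.13 ± 0.196 in liver, and brain was lower than heart (ratio 0.799, exact permutation, adjusted p = 0.0114) and than liver (ratio 0.684, exact permutation, adjusted p = 0.00452). Heart against liver did not pass there (ratio 0.856, exact permutation, adjusted p = 0.102). The mean level of the tiles in this bin ran in the same order, at 1.28% in brain, 1.45% in heart and 1.70% in liver. The part of these levels in the differences was not tested. At 5 to 20%, 80 to 95% and 95 to 100% no pair of tissues passed with all libraries, of 9 tests, with brain to heart ratios of 1.12, 1.11 and 0.991. Without brain library 1, brain was lower than liver at 95 to 100% (ratio 0.936, exact permutation, adjusted p = 0.0192). That library was the highest of brain in this bin, at 2.42 points, and was left out after seeing the data.

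A bin holds other tiles in each tissue, so the tests were repeated on the 304999 tiles that fell in the same bin in all 3. There brain exceeded heart at 5 to 20%, 20 to 40% and 40 to 60%, with ratios of 1.21, 1.25 and 1.19 (exact permutation, adjusted p = 0.0195, 0.0195 and 0.0341), but the 60 to 80% bin did not pass (ratio 1.11, exact permutation, adjusted p = 0.149). Brain and liver did not pass at 20 to 80%, with ratios of 1.03, 1.04 and 1.05 (exact permutation, adjusted p = 0.417, 0.396 and 0.303). Heart remained below liver at 20 to 40% and 40 to 60%, with ratios of 0.826 and 0.874, and passed at 5 to 20% too (ratio 0.854), but the 60 to 80% bin no longer passed (ratio 0.941, exact permutation, adjusted p = 0.158). The lower deviation of brain at 0 to 5% passed against both tissues here as well, though levels within the bin were not matched.

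By kind of sequence, brain deviated most from the other tissues inside genes and outside repeats. In coding exons the deviation was 3.99 ± 0.477 points in brain, 3.30 ± 0.251 in heart and 3.30 ± 0.201 in liver, and in introns 5.48 ± 0.610, 4.55 ± 0.390 and 4.58 ± 0.248. Both kinds passed for brain against heart (exact permutation, adjusted p = 0.0445 and 0.0425) and against liver (exact permutation, adjusted p = 0.0107 in each). Promoters, within 1000 bp before a gene start, varied little in every tissue, with 2.04, 1.95 and 2.19 points in brain, heart and liver, and no pair passed. Intergenic tiles did not pass either, at 5.49, 5.03 and 5.06 points.

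At tiles with at least 50 repeat-masked bases the order changed. Library 1 of brain had a deviation of 5.87 points there and the other brain libraries 4.35 to 4.85, against 5.01 ± 0.466 in heart and 5.05 ± 0.301 in liver. With all brain libraries the ratio to liver was 0.943 (exact permutation, adjusted p = 0.286), and without library 1 it was 0.881 (exact permutation, adjusted p = 0.0305). Library 1 was the highest brain library there and was left out after seeing the data. The lower value of the other 5 brain libraries rests on that choice. At the remaining tiles the ratio of brain to liver was 1.19 with library 1 and 1.14 without it (exact permutation, adjusted p = 0.0107 and 0.0305). For brain against heart, 6 of 12 kinds passed with all libraries. Without library 1, 0 of 12 did, although 7 had an unadjusted exact p under 0.05, and the lowest adjusted p was 0.0623.

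Deviations of neighbouring tiles were shared in brain far more than in the other tissues. The correlation of a library's deviation at a tile with that at the next tile, 100 bp on, was 0.395 in brain, 0.0745 in heart and 0.131 in liver, over 334909 pairs of tiles. In brain it fell to 0.193 at 300 to 500 bp, 0.0667 at 1100 to 2000 bp and 0.0369 beyond 10 kb and up to 50 kb, while heart was at 0.0168, 0.00387 and 0.00269 and liver at 0.0445, 0.0164 and 0.00764. Single brain libraries ran from 0.240 to 0.505 at 100 bp, all above the highest heart library (0.0872) and the highest liver library (0.157).

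The brain value at 100 bp was 0.394 without library 1, and 0.374 after the mean deviation of each library at tiles of like level was subtracted. Beyond 10 kb that subtraction took it from 0.0369 to 0.0181. In a random set of 6 liver libraries the value at 100 bp was 0.132. Adjoining tiles can be read from 1 fragment, and since the depth is unknown its part in the difference between tissues was not tested.

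**Figure D3:**
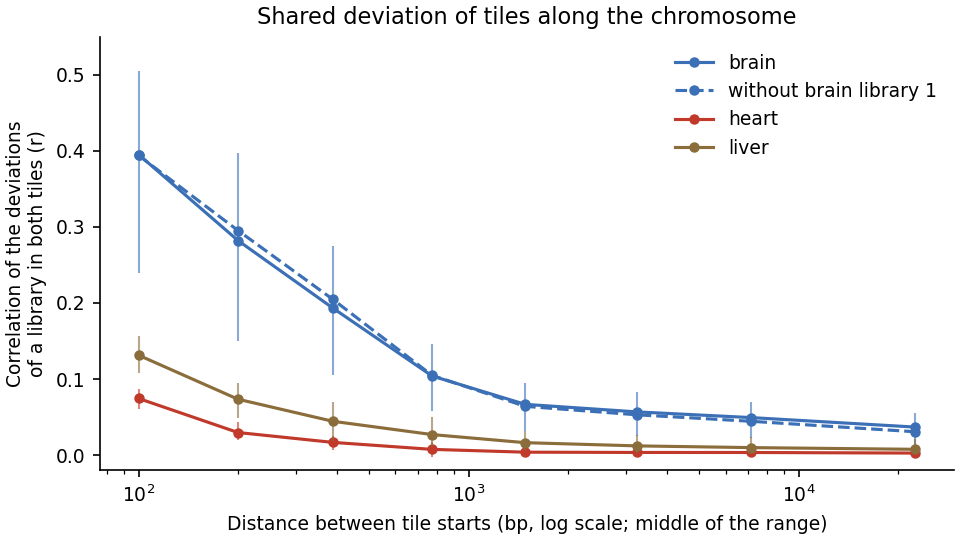
Correlation of the deviations of 1 library at 2 tiles by the distance between them (log scale), pooled over libraries; vertical lines run from the lowest to the highest library. Brain starts at 0.395 at 100 bp, with or without library 1, liver at 0.131 and heart at 0.0745.

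The brain libraries also differed along fewer directions. The first axis of a principal component analysis of the deviations took 36.8% of their variance in brain, where 5 equal axes would take 20% each, with libraries 6 and 2 at one end and 1 and 5 at the other. Without library 1 it took 42.9% (25% if equal), with libraries 6 and 2 again opposite 5. The first axis took 26.2% in heart, where it mainly set library 2 apart, and 12.1% in liver (9.09% if equal).

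Genes of brain cell types showed which libraries lay apart. The markers of oligodendrocytes had mean deviations of -0.642, 2.57, -5.03, -3.38, -1.38 and 7.86 points in brain libraries 1 to 6. Library 6 was the highest in 6 of the 9 genes and library 3 the lowest in 6. Library 6 was also 1.43 points above the mean of the other brain libraries over all tiles. It was above them at the fibroblast (3.24), endothelial (2.70) and hepatocyte markers (2.40) and below at the neuron markers (-1.02). Mog, a protein of the outer myelin surface, had levels of 75.2, 75.8, 64.5, 66.7, 71.9 and 86.7% in libraries 1 to 6. Mobp, a protein of compact myelin, had 65.3, 70.2, 58.6, 59.7, 62.0 and 75.5%, and Mag, an adhesion protein on the myelin side facing the axon, 51.5, 51.8, 44.3, 46.6, 47.7 and 58.8%. In all 3 genes library 6 was highest and libraries 3 and 4 were lowest. Sox10 and Cnp, a transcription factor and an enzyme of the same lineage, were highest in library 6 (41.0% and 51.5%) and lowest in library 3 (28.9% and 35.9%) as well. Olig1 and Olig2, transcription factor genes with low levels, did not follow, at 11.5% to 14.5% and 1.85% to 2.83%. In heart and liver the same tiles deviated by at most 1.29 points in any library.

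The neuron markers deviated by -2.38, 0.111, 2.93, 2.89, -2.54 and -1.02 points in brain libraries 1 to 6, with libraries 3 and 4 above the others. Camk2a, a kinase of excitatory neurons, had levels of 63.0, 57.5, 66.3, 66.1, 64.5 and 55.4%, lowest in libraries 6 and 2. Rbfox3, which encodes the neuronal nuclear protein NeuN, had 51.1, 56.9, 58.3, 58.9, 49.0 and 54.9%, lowest in libraries 5 and 1. Snap25, a protein of synaptic vesicle release, had 35.5, 44.4, 43.3, 44.7, 34.0 and 44.6%, again lowest in libraries 5 and 1. The neuron genes thus did not share 1 order of libraries. Astrocyte and microglia markers stayed within 2.11 points of the other libraries. The mean over the imprinted loci stayed within 0.408 points in every brain library, though library 1 was the highest in 9 of their 22 genes. The spread of their tiles in brain was low for their level. Their median SD was 5.06 points, against 7.78 at tiles of like level, and 34.1% of them were above the median of their level. In heart and liver 47.0% and 41.9% were above it.

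In liver the hepatocyte markers, which cover 111 tiles in 9 genes, ran from -2.94 points in library 4 to 4.10 in library 9. The adipocyte markers reached 3.02 points in liver library 9, and in heart the Mup genes, which encode major urinary proteins, reached 2.44 in library 1.

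**Figure D4:**
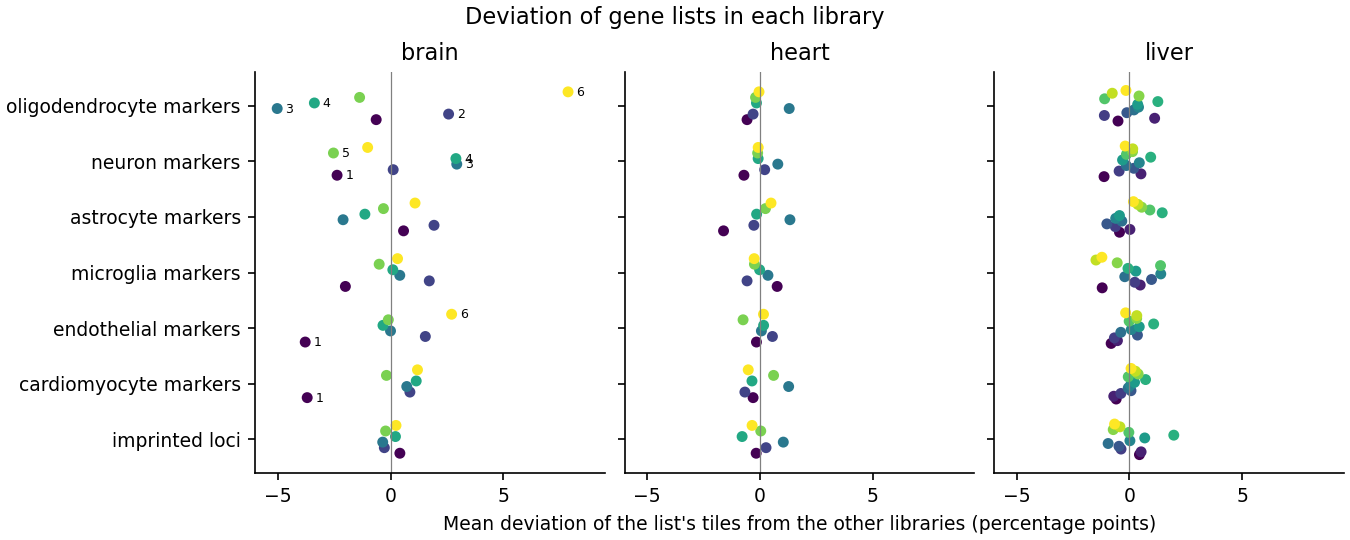
Mean deviation of the tiles of a gene list from the other libraries of the tissue (percentage points), 1 point per library with libraries in rising order from the bottom of each row, and brain libraries over 2.2 points away numbered. In brain the oligodendrocyte markers run from -5.03 in library 3 to 7.86 in library 6 and the imprinted loci stay within 0.408; in heart and liver none of these 7 lists passes 1.96.

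The SD over the libraries of a tissue had a median over tiles of 4.61 points in brain, 4.34 in heart and 4.45 in liver, and the tissues differed more in their widest tiles. The SD was above 10 points at 13.4% of tiles in brain, 6.19% in heart and 7.20% in liver, and at 11.8% in brain without library 1. Liver SDs are over 12 libraries and those of brain and heart over 6, which was not made equal here. The most variable 1% of tiles lay above 17.5 points in brain, 13.8 in heart and 14.1 in liver. They were 12.2% repeat-masked in brain (9.29% without library 1), 33.4% in heart and 31.7% in liver, where 20% of all common tiles are. Of these top sets brain and heart shared 477 tiles, 6.29% of each, brain and liver 316 or 4.17%, and heart and liver 467 or 6.16%. Each set holds 1% of the common tiles, so sets with no relation would share about 1% of their tiles.

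Most of the widest brain tiles stood alone, 6191 of 7586, but a higher share than in the other tissues had close neighbours. Of the top 1%, 18.4% were in runs of 2 or more tiles with starts no more than 500 bp apart in brain, 3.23% in heart and 8.91% in liver, and runs of 3 or more numbered 92, 3 and 31. These counts, too, rest on 12 liver libraries and on 6 in brain and in heart. The longest brain run was outside Irx5 and 7405 bp past the start of this homeobox transcription factor gene, at chr8:92364101-92365500. Its mean level was 42.3, 11.8, 41.9, 45.9, 50.2 and 11.4% in brain libraries 1 to 6. Libraries 2 and 6 were low there, and the tiles of the run had a mean SD of 19.4 points in brain, 4.82 in heart and 3.39 in liver.

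On the same chromosome, a run in Irx3os, a non-coding RNA gene beside the homeobox gene Irx3, at chr8:91803001-91804000, had 54.0, 23.4, 57.0, 58.8, 51.9 and 17.9%. A run in intron 1 of Slc4a10, a bicarbonate transporter of neurons, at chr2:62088901-62089400, had 81.5, 36.7, 87.1, 68.2, 84.3 and 37.4%. Libraries 2 and 6 were again the low ones in both. In coding exon 3 of Fam53b, at chr7:132759401-132760000, the levels were 53.3, 84.7, 76.0, 83.6, 45.7 and 88.5%. There libraries 1 and 5 were low and library 6 was highest. The Fam53b run stood at 91.8% in heart and 94.4% in liver with mean SDs of 1.79 and 2.28 points. The runs were chosen for their SD, so these levels are descriptions.

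**Figure D5:**
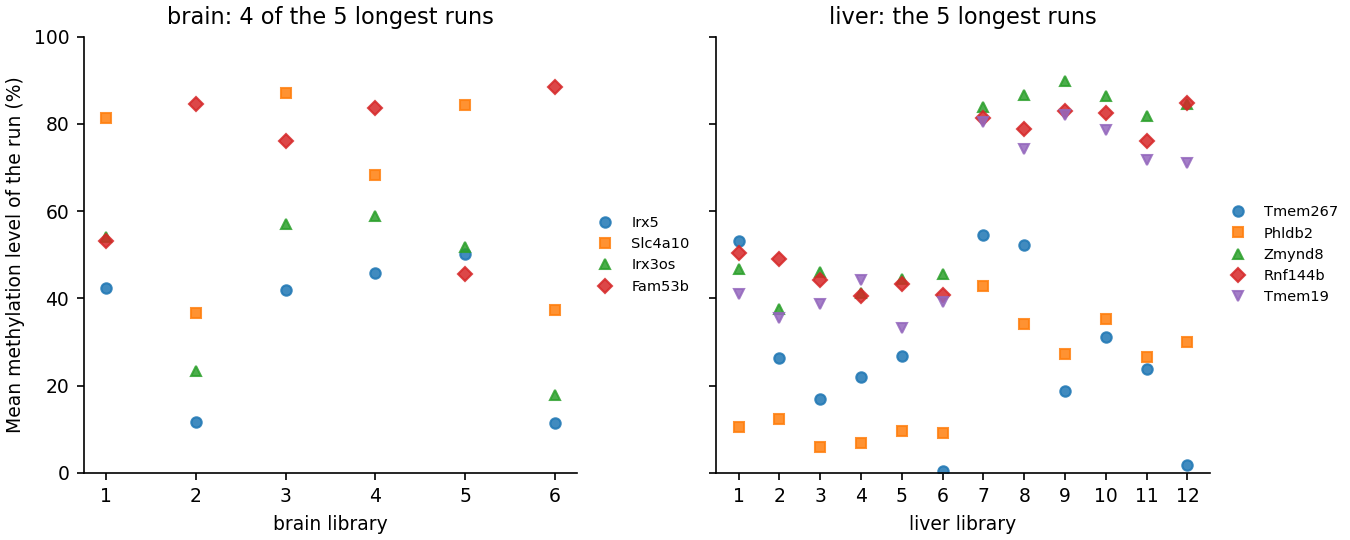
Mean methylation level (%) in each library of the longest runs of tiles from the most variable 1%, with 4 of the 5 longest in brain (left) and the 5 longest in liver (right). In brain, libraries 2 and 6 lie low at Irx5, Irx3os and Slc4a10 and libraries 1 and 5 at Fam53b; in liver, libraries 1 to 6 lie below 7 to 12 at 4 of 5 runs and not at Tmem267.

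Heart had 3 runs of 3 or more tiles. The longest, of 7 tiles, was at the promoter of Tmem267 at chr13:119488301-119489000 and holds 83 CpGs. Its mean levels were 23.9, 30.1, 42.3, 33.5, 0.686 and 2.06% in heart libraries 1 to 6, so that libraries 5 and 6 were nearly unmethylated. The same run was among the longest in liver, where it ran from 0.5% in library 6 to 54.6% in library 7, with 1.84% in library 12. Its mean SD was 15.2 points in brain, 17.5 in heart and 18.5 in liver, so that it was variable in each tissue. The other 4 liver runs, in or next to Phldb2, Zmynd8, Rnf144b and Tmem19, had every one of libraries 1 to 6 below every one of libraries 7 to 12. At Zmynd8, a gene for a chromatin reader, they stood at 37.7% to 46.8% against 81.9% to 90%.

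A few tiles were nearly unmethylated in 1 library and nearly fully methylated in another of the same tissue. Tiles at or below 10% in 1 library and at or above 90% in another numbered 45 in brain (25 without library 1), 25 in heart and 80 in the 12 liver libraries, or 13 to 55 in sets of 6 liver libraries. Repeat-masked tiles made up 84.4% of them in brain, 88.0% in heart and 46.3% in liver. The family of these repeats, IAP or other, was not determined. No tile was of this kind in all 3 tissues. The tile 16997 bp past the start of Gm17821 had levels of 0, 0, 0, 0, 93.9 and 100% in brain libraries 1 to 6 and of 0, 0, 92.0, 0, 84.6 and 91.3% in heart. In liver it was never low, from 52.4% to 95%.

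The tile in intron 3 of Nkain3, whose product binds a sodium pump subunit, had 1.70, 1.40, 91.9, 96.4, 4.20 and 91.7% in brain libraries 1 to 6. In heart it was at 8.30% in library 5 and 84.5% to 94.4% in the others, and in liver at 40.6% to 84.0%. The tile before Gm2429 had 5.70, 100, 0, 96.9, 0 and 84.6% in heart libraries 1 to 6 and 100% in brain library 2 with 0 to 9.10% in the other brain libraries. In liver it ran from 38.9% to 85.7%. At these 3 tiles the brain and heart libraries were close to 0 or to 100% with no library between 10% and 80%, while no liver library was below 38.9%. The other named tiles with the largest SDs lay by Zdhhc25 and Gm12466 in brain (SD 49.5 and 46.4 points) and by Gm33251, Gm7754 and Gm18671 in heart (46.2, 46.0 and 46.0 points).

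The liver tile with the largest SD was in coding exon 6 of Ttll9, a gene of the tubulin ligase family. It held 1 CpG and was at 0 in every brain and heart library, at 91.9% to 96.4% in liver libraries 1, 2, 3, 7, 8 and 9, and at 0 to 3.40% in liver libraries 4, 5, 6, 10, 11 and 12. A tile in exon 1 of Zfp879 was high and low in the same liver libraries, at 81.7% to 95.8% and at 1.20% to 4.10%. The next largest liver SDs lay by Mir101c, Herc6 and Nolc1 (38.8, 37.9 and 36.1 points).

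To find tiles with unequal spread, limma was fitted to the absolute deviations of all 24 libraries from their tissue means at 758651 tiles. The spread was higher in brain than in heart at 21735 tiles (2.86%) and lower at 4591 (0.605%), and higher in brain than in liver at 45598 (6.01%) and lower at 6933 (0.914%), at an adjusted p under 0.05. With deviations from the tissue median, which is the stricter form of this test, the counts were 1373 (0.181%) and 99 (0.013%) for brain against heart, and 11276 (1.49%) and 712 (0.0939%) for brain against liver. Without brain library 1 the counts from the mean were 24113 and 4668 against heart, and 43299 and 4691 against liver. Between heart and liver the main counts were 3413 higher in heart (0.45%) and 1319 lower (0.174%), and by the median 48 (0.00633%) and 32 (0.00422%). The heart to liver split had no stable direction: 72.1% of its calls were higher in heart in the main fit and 15.8% to 27.7% in sets of 6 liver libraries. For brain against liver the higher share was 86.8% in the main fit and 55.3% to 69.9% in those sets.

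Tiles called higher in brain than in heart lay in introns in 45.5% of cases and in coding exons in 15.3%, against 36.2% and 10.7% of all tested tiles, and 4.84% of them were repeat-masked, against 20%. Their median level was 66% in brain, 79.8% in heart and 87.7% in liver, so that these tiles, chosen for a wider spread in brain, were less methylated there. Of all calls between brain and heart, 5.59% were kept with deviations from the median, so this describes calls of the main fit. Among the 304954 tested tiles in the same level bin in all tissues, 1549 were higher and 1072 lower in brain than in heart, a share of 59.1% higher, against 82.6% over all tiles. Tiles called lower in brain than in heart were in promoters in 27.4% of cases, against 7.41% of all.

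The tile with the smallest p for brain over heart was in coding exon 14 of Sptbn4, a spectrin of the axon initial segment. Its levels were 4.20, 14.1, 7.60, 11.5, 4.20 and 12.7% in brain libraries 1 to 6, and at most 1.0% in heart and 1.10% in liver. The brain libraries thus split into lower and higher ones where every other library was near 0. An even split gives nearly equal absolute deviations and with them a small p. Naming tiles by the smallest p therefore favours such splits, and they are descriptions. The mean deviation was 3.90 points larger in brain than in heart and 3.89 points larger than in liver (limma, adjusted p = 1.07e-05 and 1.41e-07).

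Ccdc177 had in coding exon 2 levels of 14.8, 27.6, 14.5, 15.6, 28.3 and 29.5% in brain and at most 3.40% in heart and 3.50% in liver, with a deviation larger by 6.57 and 6.86 points (limma, adjusted p = 1.07e-05 and 7.81e-08). Kbtbd11 had in its coding exon 2 levels of 16.6, 21.3, 14.4, 12.5, 23.2 and 22.6% in brain and at most 1.90% elsewhere. Libraries 2 and 6 were among the high ones at Sptbn4, Ccdc177 and Kbtbd11, joined by library 4 at the first and by library 5 at the other two. Rassf2, a Ras-association domain gene, had in intron 1 levels of 2.30, 9.90, 9.60, 4.30, 2.50 and 9.70% in brain and up to 1.0% in heart.

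In the other direction, Cep41, a gene for a centrosomal protein, had in intron 1 levels of 1.10, 7.0, 7.40, 1.60, 2.30 and 7.20% in heart libraries 1 to 6, at most 1.40% in brain and at most 1.90% in liver. Rrp7a, a ribosomal RNA processing gene, had at its promoter 0.3, 4.0, 5.10, 0, 4.40 and 0.6% in heart and at most 1.10% elsewhere, and Tom1, a gene of endosomal traffic, 9.80, 0.5, 9.40, 10.1, 2.0 and 0.6% in heart and at most 3.70% elsewhere. In each of the 3 genes 3 heart libraries were raised and 3 were near the level of the other tissues, and the raised libraries were not the same ones. Even splits of this kind are what the smallest p favours. Msl1, of a histone acetyltransferase complex, had at its promoter 12.5% and 10% in heart libraries 1 and 5 and at most 2.30% in the other heart libraries. Its call against liver was lost with deviations from the median (limma, adjusted p = 0.183) and on the arcsine scale (0.148).

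Of the 18 named calls of unequal spread, 13 passed in every alternative fit that kept their tile, the leaving out of each library included. The exceptions were Ccdc177 and Cep41 for brain against heart on the arcsine scale (limma, adjusted p = 0.0559 and 0.0671), and for heart against liver Msl1, Cep41 on the arcsine scale (0.494) and Foxa3 in 2 sets of 6 liver libraries (0.0503 and 0.0535).

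Where liver was the more variable tissue, the smallest p fell on Ttll9 and Zfp879, described above, and on an intron of Foxa3 and intron 1 of Xkr7. Foxa3, a liver transcription factor gene, had 21.1% to 34.8% in liver libraries 1 to 6 and 75.9% to 84.1% in 7 to 12, with heart at 81.4% to 83.1%. Xkr7, on the same chromosome as Ttll9, had 29.2% to 42.7% in the liver libraries that were high at Ttll9 and 0 to 2.50% in the others. The even splits of these liver tiles, too, are of the kind that the smallest p favours.

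Among the gene lists, the oligodendrocyte markers had 19 of 251 tested tiles (7.57%) called more variable in brain than in heart, beside 2.86% of all tiles, and 38 (15.1%) called more variable than in liver, beside 6.01%. The neuron markers had 37 of 668 (5.54%) and 73 (10.9%). The cardiomyocyte markers had 23 of 700 (3.29%) called less variable in brain than in heart, beside 0.605%, and 24 (3.43%) called more variable in heart than in liver, beside 0.45%. These counts are from the main fit, and over all tiles its heart to liver direction turned in sets of 6 liver libraries. With all libraries these lists were not wider than tiles of like level by their median SD: it was 7.04 points against 8.03 for the oligodendrocyte and 6.43 against 6.70 for the neuron markers in brain, and 4.80 against 5.54 for the cardiomyocyte markers in heart. The shares of their tiles above the median of their level were 54.2%, 56.9% and 45.1%. Without brain library 1 the neuron markers had a median SD of 6.23 points, against 6.17 at like level, with 59.6% above. The oligodendrocyte markers had 7.22 against 7.61, with 57.8% above. Of the hepatocyte tiles 65.8% had an SD in liver above the median of tiles of like level, the highest share of any list in liver, and their median SD was 6.91 points, against 6.64. The tiles of endothelial genes were near the background, with 10 of 505 (1.98%) higher in brain than in heart. Of 68 repeat-masked tiles at genes listed as neighbours of IAP elements, 0 were higher in brain than in heart. Against liver 1 (1.47%) was higher in brain. The shares of these tiles above the median of their level were 55.9% in brain, 52.9% in heart and 57.4% in liver. The Vmn genes, receptors of the vomeronasal organ, had few variable tiles in brain, 37.7% above the median of their level. The tiles of a gene are not independent, the lists differ in level from all tiles, and these shares are descriptions with no test.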

How the data were processed

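Genomic DNA of liver, brain and heart was made into enhanced RRBS libraries, sequenced and mapped by a service company with methods of its own. The labels name Bismark and methylKit without a version, and the build mm10. The authors deposited a table per tissue with 1 methylation level per tile of 100 bp and library, as a fraction from 0 to 1, for tiles above 10 reads in every library of the tissue and below an upper limit of coverage. The levels were multiplied to percent here. No counts are in these tables, so no binomial interval or depth could be given, and library depth is unknown.

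The tiles present in all 3 tables were used, on autosomes. Each library's absolute deviation from the mean of the other libraries of its tissue was averaged over all tiles, in bins of the tile's mean level with limits at 0, 5, 20, 40, 60, 80, 95 and 100%, and by sequence feature (RefSeq genes on GRCm38, CpG number and soft-masked bases of mm10). Means were compared with exact two-sided permutation tests over libraries, with Benjamini-Hochberg adjustment. Mice were littermates in pairs, and which libraries share a litter is not known for these columns, so the tests treat libraries as independent. The scores also depend on each other by construction. Each is a distance from the mean of the other libraries, so an outlying library enters every score of its tissue. Liver scores are averages over random sets that share libraries, while brain and heart scores are not. The permutation tests do not allow for this dependence, and its effect on their p-values was not tested. limma 3.58.1 (R 4.3.3) was fitted with a trend to absolute deviations from the tissue mean, scaled for the number of libraries, with adjustment over all tiles. Other steps used Python 3.11.15. The deviation, permutation and subset computations and the limma fit were tested on simulated data.

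Tiles were named by rule: the 5 largest SDs and the 5 longest runs in the top 1% of SD per tissue, and the 3 smallest p per contrast and direction. A gene list holds the tiles from 2000 bp before a gene to its end. The list of IAP neighbours holds the repeat-masked tiles in its genes and within 10 kb of them. Tiles of like level are those in the same of 200 bins of mean level holding equal numbers. The members and lists were chosen with earlier results of these data known. Tiles of 1 chromosome enter all counts and are not named, and 1 of the 5 longest runs in brain is not reported here. The alternatives without brain library 1 by level and feature, with all 12 liver libraries by feature, with tiles in the same level bin for the limma fit, and for shared deviations were chosen after seeing the data. Columns were not given to animals, so no comparison of males with females was made. For 2 mouse numbers the labels give opposite genders in liver and in the other tissues, which enters no result here.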

Additional observations from a re-analysis of the deposited data

Results flagged for a closer look

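Among 90 groups of 6 brain or heart libraries (their mean levels, deviations, slopes and list levels), 10 held a library further from the others than Dixon's 95% limit. Chance gives about 1 in 20, and the groups are not independent, since the same libraries enter all of them. Brain library 1 made up 7 of the 10. It was high in the deviation of repeat-masked tiles, at 5.87 points against 4.35 to 4.85, in the slope towards heart, at 28.2% against -2.51% to 1.67%, and in the slope towards liver, at 13.5% against -0.905% to 3.39%. It was low in the mean level of the cardiomyocyte markers, at 59.5% against 62.4% to 63.5%, of the Mup genes, which encode urinary proteins made in liver, at 77.7% against 80.6% to 82.0%, of the cholangiocyte markers, at 47.0% against 49.7% to 51.3%, and of the leukocyte markers, at 64.2% against 66.8% to 68.3%.

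In heart, library 3 had the highest mean level over all tiles, at 60.3% against 59.6% to 59.8%, and the highest level of the oligodendrocyte markers, at 53.5% against 51.9% to 52.3%. Heart library 2 was high in the Cyp genes, a family of oxidizing enzymes, at 56.2% against 55.4% to 55.6%. These heart gaps are under 1.2 points each.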

How the results depend on the processing

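No paired analysis was possible because the level columns carry no mouse number. Of the overall deviations, the heart to liver difference of -0.0445 points turned to 0.232 with the own tiles of each table and 0.163 with all 12 liver libraries. It ran from -0.198 to 0.0651 when single libraries were left out, turning positive without heart library 5 or 6. On the arcsine scale the differences were 0.00992 for brain against heart and -0.00737 for heart against liver, both past the threshold, and 0.00255 for brain against liver, which was not. At 20 to 80% the brain to heart difference was 1.98 points and the heart to liver one -0.796, and brain to heart was 0.849 at tiles with fewer than 50 repeat-masked bases and 0.637 at tiles with at least 3 CpGs, all past the threshold. Leaving out 1 library gave 0.410 to 0.799 for brain against heart and 0.366 to 0.754 for brain against liver.

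By level in tiles of the same bin, 1 bin passed for brain against liver, and 3 values outside the calls changed sign: brain minus heart at 80 to 95% (-0.140) and heart minus liver at 80 to 95% (0.281) and 95 to 100% (0.0785). By feature, without brain library 1, 0 kinds passed for brain against heart, where 7 had an unadjusted exact p under 0.05. Tiles with 7 or more CpGs turned to -0.0185 for brain minus heart. For heart against liver 0 kinds passed as well, where 2 had an unadjusted exact p under 0.05. That pair holds no brain library, and its unadjusted values did not change. The change came from the adjustment over all pairs together. With all 12 liver libraries, heart against liver had 0.

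The counts of tiles with unequal spread depended most on the setting. For brain against heart, brain against liver and heart against liver they were 26326, 52531 and 4732. They were 1472, 11988 and 80 with the median, 4563, 14798 and 652 on the arcsine scale, and 2621, 4649 and 1425 at tiles of the same level bin. Without a trend heart against liver had 3145. In 10 random sets of 6 liver libraries they ran from 12118 to 15233, from 28205 to 33663 and from 3628 to 7241, with more calls lower than higher in heart than in liver, as on the arcsine scale. Leaving out 1 library gave 18963 to 37040, 38867 to 60440 and 3673 to 6820. The causes were not tested. An unknown read depth limits all measures of spread.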
